A study of Homo sapiens with 10 samples.

Results

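The genes described here are the 177 protein-coding genes of human chromosome 19 that are named ZNF and a number and that had a base mean of at least 50 in the table of BRG1-wt. The base mean is the mean of the normalised read counts of a gene over the 4 libraries of a table, 2 of a transfected group and 2 of control. The tables held 244 chromosome 19 genes with such names, so that 67 were below the limit, 15 of them listed at 0, and 11209 protein-coding genes in all were at or above it. Members were therefore chosen by their base mean in 1 table, and that level is a description. Just outside the limit were ZNF85, with a base mean of 48.3, and ZNF653, with 49.9. Just inside were ZNF414, with 52.9, and ZNF737, with 53.5.

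RNA-seq was made from C33A cells, a human cervical carcinoma line that the study describes as lacking SWI/SNF activity, harvested 48 h after transient transfection. The 10 libraries, 2 replicates per group, came from cells given the empty vector pOPRSVI (control), pBJ5-BRG1 (BRG1-wt), pBJ5-BRG1-K798R (BRG1-mut), pCG-hBrm (BRM-wt) or pCG-hBrm-K798R (BRM-mut), where K798R, as the plasmid names give it, is a substitution in the ATPase domain. BRG1 and BRM are the ATPase subunits that drive the SWI/SNF chromatin remodelling complex. All groups are 1 cell line, the ATPases were overexpressed from plasmids, the vectors differ between control, BRG1 and BRM, and no label says whether replicates were separate cultures. Neither read counts of single libraries nor reads behind an exon are in the tables, so that the depth behind each value is unknown, base means carry no replicate error, and no comparison below was tested.

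Where 4 base means are given in a row, they are always those of the tables of BRG1-wt, then BRG1-mut, then BRM-wt, then BRM-mut. SMARCA4, which encodes BRG1, had base means of 25802, 29824, 3864 and 3076. SMARCA2, which encodes BRM, had 12.6, 9.33, 59658 and 75591, so each ATPase gene was high in the tables of its own plasmids. Of the epithelial markers, KRT8 lay between 90.8 and 456 and KRT18 between 263 and 696 over the 4 tables, while EPCAM did not exceed 30.2, CDH1 6.27 and KRT19 1.23. Epithelial markers were thus partly absent, and KRT8 and KRT18 were lower in the tables of both mutants than in those of both wild-type ATPases. The mesenchymal marker VIM was between 11103 and 12049, and CDH2 and FN1 reached 96.3 and 149. Of the blood cell markers, CD3E and HBB were at 0 and PTPRC was between 1529 and 1851.

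Most chromosome 19 zinc finger genes encode proteins with a KRAB domain, which recruits the corepressor TRIM28, and an array of C2H2 zinc fingers, which bind DNA. TRIM28 brings in the histone methyltransferase SETDB1 and heterochromatin proteins, and many KRAB zinc finger proteins are known to bind and silence transposable elements. The genes arose by repeated tandem duplication and lie in clusters. The A box of the KRAB domain, the stretch that binds TRIM28, is usually encoded by an exon of its own. An mRNA without this exon does not encode the complete repressor domain.

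Alternative exons that encode an A box were among the exons listed for the members in the splicing tables. A listed exon is a cassette exon that passed the authors' limit in MISO, with its PSI, the fraction of transcripts that include it, in 1 transfected library and in the control library that shares its replicate number. The 5 exons below are shown because each carries the A box of its gene. Capitals mark the codons of the 17 residues that matched a consensus of the A box, with at least 10 identical residues in each of these exons and at most 6 in any other listed exon of a member. The sequences are those of GRCh37 from 5′ to 3′ on the strand of the gene.
ZNF442 (chr19:12463802-12463928, minus strand): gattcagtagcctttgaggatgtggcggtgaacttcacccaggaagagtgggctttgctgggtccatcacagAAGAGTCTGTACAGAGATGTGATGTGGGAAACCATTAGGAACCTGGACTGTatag
ZNF772 (chr19:57987028-57987154, minus strand): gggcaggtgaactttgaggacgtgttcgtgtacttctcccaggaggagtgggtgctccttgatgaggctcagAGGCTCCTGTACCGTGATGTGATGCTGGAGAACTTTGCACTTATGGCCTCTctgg
ZNF551 (chr19:58196630-58196753, plus strand): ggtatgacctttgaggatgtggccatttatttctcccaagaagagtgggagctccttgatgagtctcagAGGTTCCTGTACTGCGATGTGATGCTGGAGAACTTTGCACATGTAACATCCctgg
ZNF101 (chr19:19788673-19788795, plus strand): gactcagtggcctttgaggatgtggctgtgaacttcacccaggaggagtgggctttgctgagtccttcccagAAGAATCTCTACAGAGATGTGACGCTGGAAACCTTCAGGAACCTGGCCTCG
ZNF480 (chr19:52817406-52817532, plus strand): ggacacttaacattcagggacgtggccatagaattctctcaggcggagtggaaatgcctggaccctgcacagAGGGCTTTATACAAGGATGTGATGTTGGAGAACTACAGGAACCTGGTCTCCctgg

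All 5 are wholly coding exons, and in 4 of them the length is not divisible by 3, so that skipping shifts the reading frame. In the canonical transcripts of the annotation they are exon 3 of ZNF480, exon 2 of ZNF551 and exon 3 of ZNF772, whereas the exons of ZNF101 and ZNF442 have these coordinates only in other transcripts. The consensus was first searched over 20 residues, which found 0 of the listed exons since this longer consensus runs past the end of the exon, and the search with 17 residues was chosen after this was seen.

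The PSI of the A-box exon was higher than control in 3 of these genes and lower in 2. In ZNF442 it was 0.22 in control replicate 2 and 0.78 in BRG1-wt replicate 2. In ZNF772 it was 0.23 in control replicate 2 and 0.78 in BRM-mut replicate 2. In the same library a downstream exon of ZNF772, of 123 bases and also coding, went the other way, with 0.34 in control and 0.02 in BRM-mut. In ZNF551 the A-box exon was at 0.38 in control replicate 2 and 0.90 in BRG1-mut replicate 2. The 2 genes with a lower value were ZNF101, with 0.89 in control replicate 2 and 0.44 in BRM-mut replicate 2, and ZNF480, with 0.32 in control and 0.12 in BRM-wt, also in replicate 2. Each of the 5 exons was listed in 1 table of the 8, in replicate 2, and the other replicate of its group did not list it. Another annotated gene overlaps the exons of ZNF480 (on the opposite strand), ZNF551 and ZNF772, and the strand setting of the counting is not given in the sources used here.

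Over the 8 splicing tables, 20 of the 177 members had a listed exon (11.3%). The share was 18.2% over all 11209 protein-coding genes at the same base mean limit, 17.8% over 213 zinc finger genes of other chromosomes and 11.1% over the 619 other genes of chromosome 19. The members' share was therefore below that of all genes and close to that of their chromosomal neighbours. Level differed between the sets too. The median base mean in the BRG1-wt table was 530 in the members and 1314 over all protein-coding genes at the limit. It was 897 in the zinc finger genes of other chromosomes and 646 in the other genes of chromosome 19. The part of level in these shares was not tested. The 20 members had a median base mean per kb of exons of 121, and the other members 95.6. They held 25 listings of 23 exons, with 9 listings in BRG1-wt, 7 in BRM-mut, 6 in BRM-wt and 3 in BRG1-mut. The PSI was higher than control in 13 listings and lower in 12, that is higher in 52.0%, beside 53.5% of all 5191 listings. The median absolute difference was 0.40 in the members and 0.25 over all listings. Listing was a selection on the difference itself, and the reads behind each exon are unknown. These medians therefore do not compare the size of splicing differences between the gene sets. Both replicates of a group listed the same exon in 0 of 25 combinations of group and exon in the members, and in 543 of 4648 (11.7%) over all genes. No direction in a member was thus seen in both replicates. The tables list only exons past the authors' limit, so that an exon missing from a table may have differed without reaching it.

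**Figure D1:**
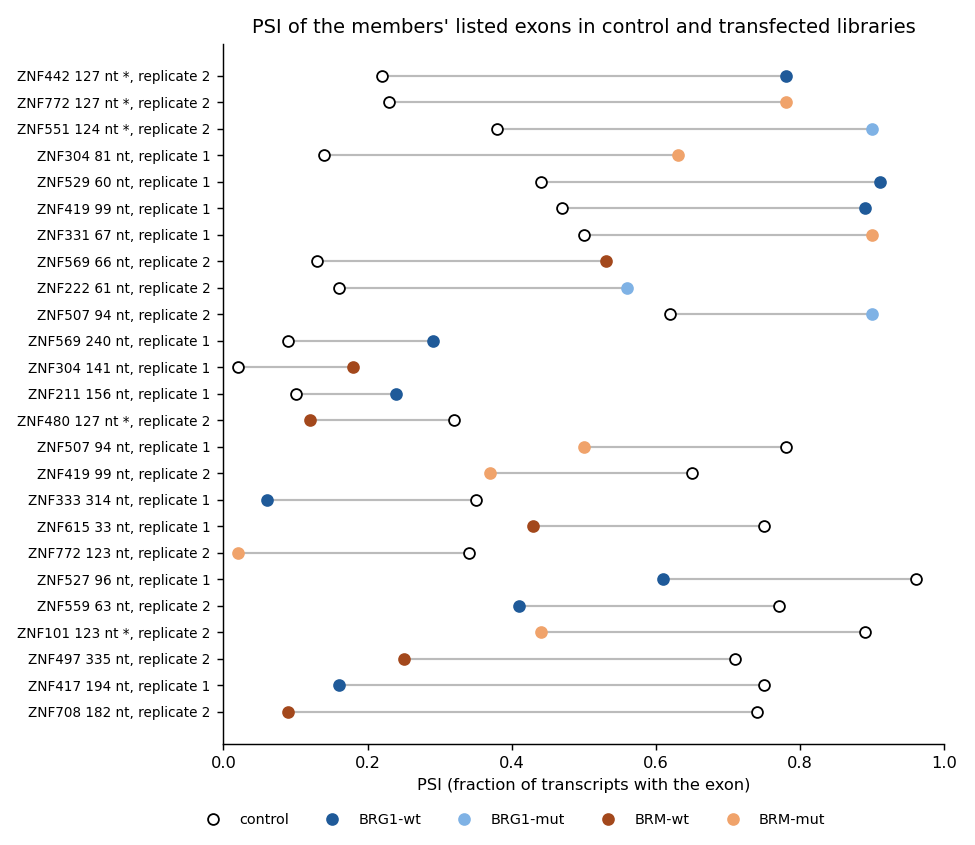
PSI (0 to 1) of the 25 listings in the members, with the control library as an open circle and the transfected library of the same replicate as a filled circle, sorted by the difference. An asterisk marks the 5 A-box exons. Differences ran in both directions, 13 to the right and 12 to the left.

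The largest differences were not those of the A-box exons alone. In ZNF708 the PSI of an exon of 182 bases was 0.74 in control and 0.09 in BRM-wt, both of replicate 2, the largest absolute difference of the members (0.65). In ZNF417 it was 0.75 in control replicate 1 and 0.16 in BRG1-wt replicate 1, in a gene of which 33.3% of the 50-base exon stretches occur more than once on chromosome 19, so that reads could have been split between copies. In ZNF304, whose product is known to guide TRIM28 to promoters in colorectal cancer cells, the PSI of a non-coding exon was 0.14 in control replicate 1 and 0.63 in BRM-mut replicate 1. ZNF442, ZNF772 and ZNF551, given above, complete the 6 exons with the largest differences. Of the 23 exons, 11 were wholly coding, 6 partly coding and 6 not coding, and 7 of the 11 coding exons had a length divisible by 3. All 23 had the coordinates of an annotated exon of the member, and 9 were overlapped by another annotated gene. Their median length was 123 bases, from 33 in ZNF615 to 335 in ZNF497.

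Exons listed in more than 1 table allow the direction to be compared between groups. There were 2 such exons. The exon of 99 bases of ZNF419, exon 4 of the canonical transcript, was at 0.47 in control and 0.89 in BRG1-wt in replicate 1, and at 0.65 in control and 0.37 in BRM-mut in replicate 2. The non-coding second exon of ZNF507 was at 0.62 in control and 0.90 in BRG1-mut in replicate 2, and at 0.78 in control and 0.50 in BRM-mut in replicate 1. The exon of ZNF419 was thus higher than control in BRG1-wt and that of ZNF507 in BRG1-mut, and both were lower in BRM-mut. For each exon the libraries were of different replicate numbers, with control values that differed between replicates. Another annotated gene overlaps the exon of ZNF419 on the same strand.

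At the level of whole genes, the members were expressed at low levels for protein-coding genes. Levels are compared between genes as the base mean per kb of exons, averaged over the 4 tables, which had a median of 99.2 in the members, 154 in the zinc finger genes of other chromosomes, 147 in the other genes of chromosome 19 and 227 over all protein-coding genes at the limit. The limit of the rule applied to all these sets. Together the members held 0.426% to 0.457% of the total base mean of protein-coding genes in the 4 tables.

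**Figure D2:**
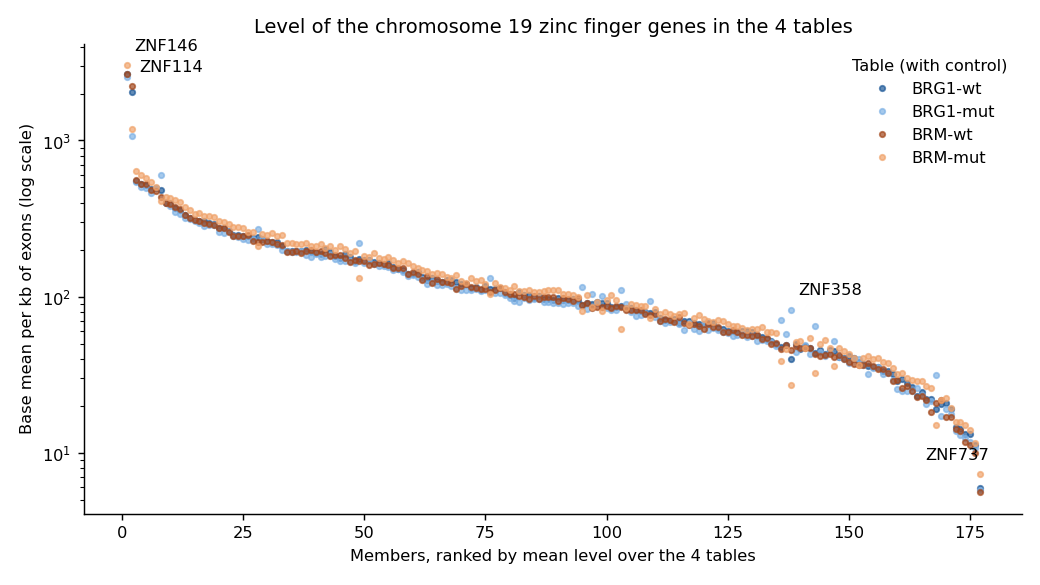
Base mean per kb of exons (log scale) of each member in the 4 tables, ranked by the mean of the 4. ZNF146 and ZNF114 stand above the other members, which lie at or below 571 per kb on average, and the 4 tables coincide closely for most members while those of ZNF114 and ZNF358 are spread.

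The 2 highest members were ZNF146 and ZNF114. ZNF146, a gene whose product consists almost entirely of zinc fingers, had base means of 11003, 10621, 11094 and 12556, and a mean level of 2732 per kb. ZNF114 had a mean level of 1635 per kb. ZNF260 (571 per kb), ZNF121 (539) and ZNF587 (528) followed. ZNF587 has 24.1% of its exon stretches in more than 1 copy on the chromosome, so that its value is uncertain. At the other end were ZNF490 (14.2 per kb), ZNF540 (13.1), ZNF682 (12.5), ZNF726 (10.9) and ZNF737 (6.14). Of the 177 members, 19 had over 10% of their exon stretches repeated, up to 41.9% in ZNF492, and 58 had under 1%.

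By position, 48 members lay on the short arm and 129 on the long arm. With a gap of at least 1 Mb between neighbours they fell into 16 clusters, in which ZNF333, ZNF507, ZNF114 and ZNF473 each stood alone. The largest had 51 members from 56088140 to 58992597 of GRCh37, and the next 25 from 36673178 to 38307940 and 24 from 52074536 to 54083523. An A box was recognised in the annotated coding sequence of 153 members, by at least 9 of 20 residues identical to the consensus, with at most 6 in the other 24. This limit was set after the values were seen. The members had a median of 12 zinc fingers, from 1 to 31 in the 175 with a canonical coding sequence. Their exons had a low GC content, with a median of 43.6%, beside 44.9% in the zinc finger genes of other chromosomes, 59.5% in the other genes of chromosome 19 and 47.2% over all protein-coding genes at the limit. The 24 members in which no A box was recognised differed in this, with a median of 58.7%, against 43.0% in the 153. A more divergent A box in some of the 24 would be missed by this search.

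The ratio of base means compares the members between tables. It was taken on the log2 scale and centred on the median of all protein-coding genes at or above 50 in both tables, which moved by -0.03 for BRG1-mut over BRG1-wt, 0.08 for BRM-mut over BRM-wt and -0.05 for BRM-wt over BRG1-wt. Since the tables of a pair share the 2 control libraries, each ratio is nearer to 1 than the ratio of the groups themselves. The question was how the members' level differed with the ATPase-deficient form and with BRM in place of BRG1.

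For BRG1-mut over BRG1-wt, the median of the members was -0.03 (n = 176), of the zinc finger genes of other chromosomes -0.01 and of the other genes of chromosome 19 0.26. A ratio at least 1.2-fold higher was found for 10 members and at least 1.2-fold lower for 1, beside 12.6% of all genes that were higher and 3.15% that were lower. For BRM-mut over BRM-wt, the members had a median of 0.06 (n = 175), the zinc finger genes of other chromosomes 0.04 and the other genes of chromosome 19 -0.23. Here 3 members were higher and 7 lower, beside 0.227% and 13.4% of all genes. For BRM-wt over BRG1-wt, the medians were 0.03, 0.02 and -0.03, and 0 members were higher and 0 lower (n = 176), beside 0.368% and 0.79% of all genes. In each pair this median of the members lay nearer to that of zinc finger genes elsewhere than to that of other genes of chromosome 19. With the median of genes of like exonic GC content subtracted, the 3 medians were -0.002, -0.003 and 0.030 in the first pair. In the second they were 0.028, 0.028 and -0.010, and in the third 0.011, 0.012 and 0.012. The other genes of chromosome 19 thus lay far closer to the members after this subtraction. A further pair, BRM-mut over BRG1-mut, was chosen after the data were seen. Its 3 medians were 0.11, 0.08 and -0.55 without this subtraction and 0.04, 0.04 and -0.02 with it. Without it, 5 members were higher and 14 lower, beside 0.254% and 25.6% of all genes.

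**Figure D3:**
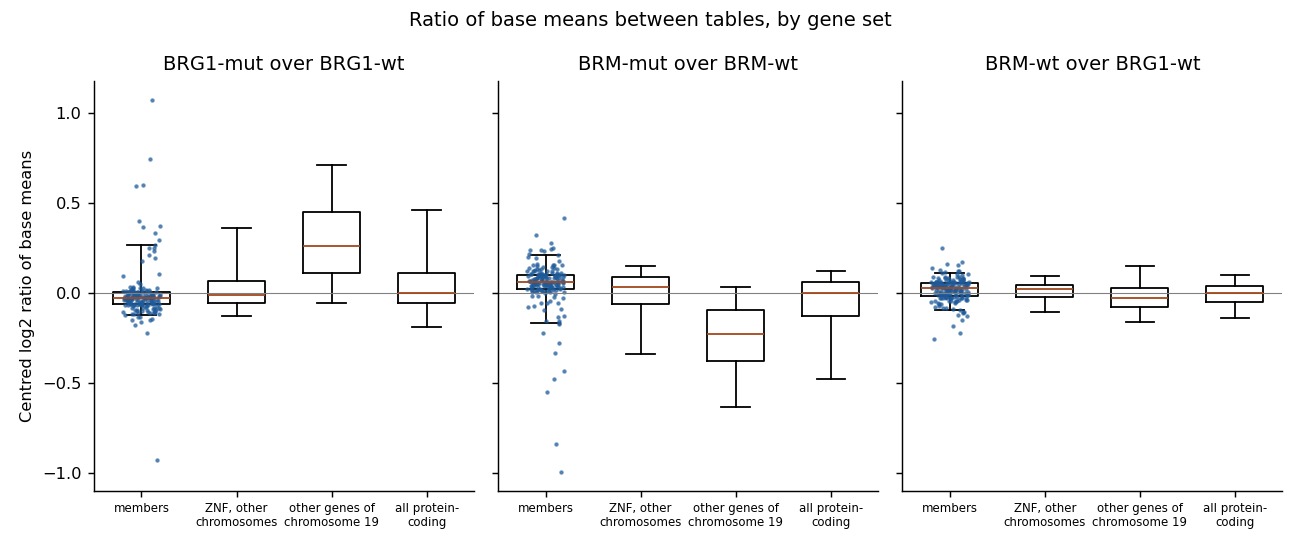
Centred log2 ratio of base means for 3 pairs of tables and 4 gene sets. Boxes give the quartiles with the median, whiskers the 5th and 95th percentiles, and points the members. The medians of the other genes of chromosome 19 lie at 0.26 and -0.23 in the first pair and the second, and those of the members at -0.03 and 0.06. No GC correction was applied here.

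ZNF114, a KRAB gene with 3 fingers on the long arm (48773338 to 48790865 of chromosome 19), stood apart. Its base means were 6207, 3199, 6725 and 3576. Both mutant tables were low and both wild-type tables high, with a centred log2 ratio of -0.93 for BRG1-mut over BRG1-wt, -0.99 for BRM-mut over BRM-wt and 0.16 for BRM-wt over BRG1-wt. It was the only member lower in the first pair, and it had the lowest ratio of all members in the second. KRT8 and KRT18 were also lower in both mutant tables, with ratios of -1.74 and -1.33 in the first pair and -2.11 and -1.25 in the second. Their part in the value of ZNF114 was not tested.

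The 5 members with the highest ratio of BRG1-mut over BRG1-wt were ZNF358, ZNF414, ZNF787, ZNF865 and ZNF446. ZNF358 had base means of 82.8, 171, 95.4 and 56.5, so that the BRG1-mut table was highest and the BRM-mut table lowest, with ratios of 1.08 and -0.84. ZNF787 had 160, 237, 157 and 119, with ratios of 0.60 and -0.48. ZNF865 had 179, 265, 173 and 145, with ratios of 0.60 and -0.33. ZNF414, just inside the limit, had 52.9, 87.0, 57.1 and 41.6, with 0.75 in the first pair. ZNF446 had 423, 547, 422 and 384, with 0.40 and -0.22. Each of the 5 was thus highest in the BRG1-mut table and lowest in the BRM-mut table. They were picked by their ratio of BRG1-mut over BRG1-wt, and their exonic GC content was 59.8% to 70.9%. With the median of genes of like GC content subtracted, this ratio was 0.48 in ZNF358, 0.36 in ZNF414 and 0.16 in ZNF446. It was 0.00084 in ZNF787 and -0.002 in ZNF865. After ZNF114, the lowest ratios in the first pair were small, from -0.22 in ZNF681 to -0.15 in ZNF254, with ZNF471 and ZNF613 between them.

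For BRM-mut over BRM-wt, the lowest after ZNF114 and ZNF358 were ZNF574 (-0.55), ZNF787 and ZNF428 (-0.43). ZNF574 had base means of 404, 512, 402 and 291. The highest were ZNF253 (0.42), ZNF846 (0.32), ZNF540 (0.28), ZNF442 (0.25) and ZNF681 (0.24). ZNF253 had base means of 79.8, 77.6, 66.3 and 93.7, and ZNF540 58.1, 54.5, 51.7 and 66.4, so these were genes of low level. ZNF442, the gene with the A-box exon of highest difference, had 72.2, 81.9, 71.5 and 90.0. For BRM-wt over BRG1-wt the members ran from -0.25 in ZNF846 to 0.25 in ZNF358, and the next highest were ZNF283, ZNF114, ZNF414 and ZNF221, from 0.17 to 0.14. The lowest after ZNF846 were ZNF253, ZNF682, ZNF681 and ZNF497 (-0.13).

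The ratios moved with the GC content of the exons, in the members as in other genes. The 26 members with an exonic GC content of 50% or more had a median ratio of 0.22 for BRG1-mut over BRG1-wt and held all 10 members that were higher (38.5% of the 26), while 30.4% of the 4492 other protein-coding genes of that GC content were higher. The other 151 had a median of -0.04, with 0 higher and 1 lower, ZNF114. For BRM-mut over BRM-wt, the medians were -0.13 and 0.07, and 6 of the 7 lower members were among the 26, ZNF114 being the exception. These were 24.0% of the 25 of them with a ratio, beside 28.7% of the other genes of that GC content. The 3 higher members of this pair, ZNF253, ZNF846 and ZNF540, were all under 50%, that is 2.00% of the members under 50%, beside 0.295% of other genes under 50%. Other protein-coding genes followed GC content likewise, with medians of 0.15 at 50% or more and -0.03 under 50% in the first pair, and -0.14 and 0.04 in the second. The rank correlation of ratio and GC content across the members was 0.38 and -0.43, beside 0.68 and -0.68 across all protein-coding genes, given as a description since genes of the same libraries are not independent. With the median of genes of like GC content subtracted, 2 members were higher and 4 lower in the first pair, beside 2.35% and 4.33% of all genes. In the second pair 5 were higher and 3 lower, beside 1.06% and 4.96%. These were partly other members than before. ZNF497, ZNF784 and ZNF524, of low level and a GC content of 62.6% to 65.8%, became lower in the first pair (-0.47, -0.39 and -0.33). In the second pair they became higher (0.45, 0.42 and 0.34), the directions opposite to those of ZNF358. ZNF524 had been higher in the first pair without the subtraction (0.27). ZNF540 was no longer past the fold in the second pair (0.23). ZNF114 kept ratios of -0.93 and -1.004 under this subtraction, whereas ZNF358 went to 0.48 and -0.34, still past the fold in both pairs, and ZNF787 to 0.00084 and 0.0133. The limit of 50% was chosen after the data were seen.

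**Figure D4:**
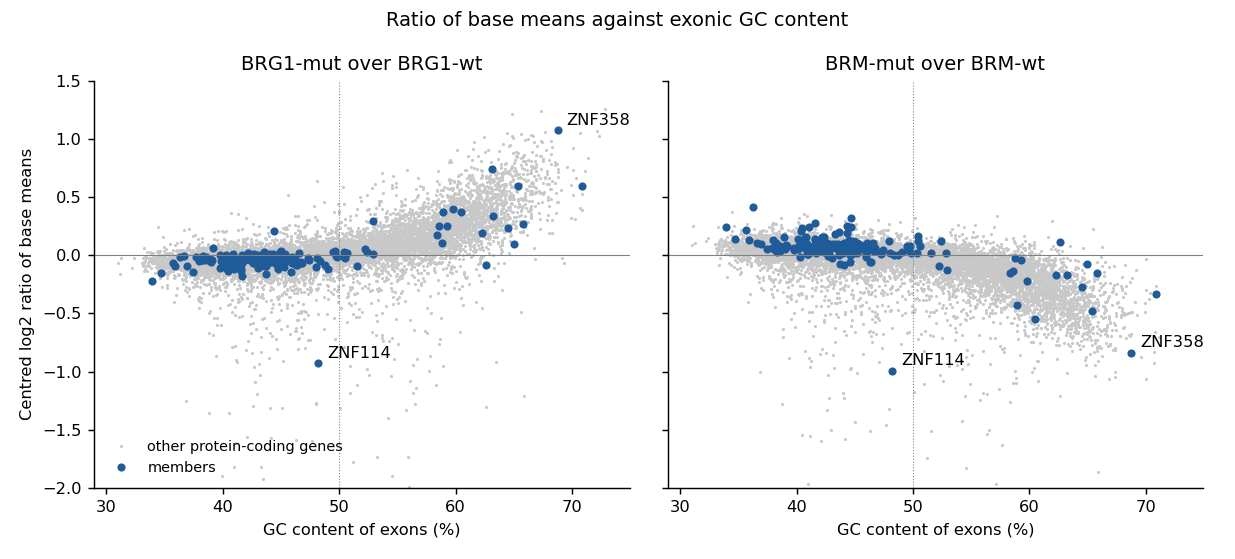
Centred log2 ratio of base means against the GC content of exons for 2 pairs of tables, with the members in blue and other protein-coding genes in grey. The dotted line marks 50%. ZNF114 lies below the median of genes of its GC content in both panels, and ZNF358 lies above it in the first and below it in the second, and 17 and 19 genes outside the axis from -2 to 1.5 are not drawn.

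By the KRAB domain, 8 of the 10 members higher in BRG1-mut over BRG1-wt were among the 24 in which no A box was recognised. So were 6 of the 7 lower in BRM-mut over BRM-wt. Over all protein-coding genes 12.6% were higher in the first pair and 13.4% lower in the second. Among other genes with a GC content of 50% or more these shares were 30.4% and 28.7%. The medians of the 24 were 0.14 and -0.09, and those of the 153 with a recognised A box -0.03 and 0.07. Of the 24, 15 had a GC content of 50% or more, and of the 153, 11 did. Recognition of the domain and GC content thus went together, and their separate parts in the ratios were not tested.

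Of 19 genes of the silencing machinery with which KRAB proteins work, 18 were matched in the tables. TRIM28, the corepressor itself, had base means of 12894, 15698, 12434 and 10762, with centred ratios of 0.31, -0.29 and -0.01. SETDB1, the methyltransferase, had 2188, 2072, 2094 and 2335, with ratios of -0.05, 0.07 and -0.02. Over the 18, the ratio ran from -0.09 to 0.31 in the first pair. There 2 genes were higher (TRIM28 and the methyltransferase gene EHMT2, named after its value was seen) and 0 lower, beside 12.6% and 3.15% of all genes. In the second pair the ratio ran from -0.29 to 0.10, with 0 higher and 1 lower, TRIM28, beside 0.227% and 13.4%. In the third it ran from -0.05 to 0.06 with 0 in either direction, beside 0.368% and 0.79%. No GC-corrected ratio was taken for these genes. Their level per kb had a median of 565, above the 99.2 of the members.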

How the data were processed

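RNA-seq of oligo-dT primed cDNA from 10 libraries of C33A cells was mapped to GRCh37 by the authors with TopHat2 2.0.4, counted on genes with HTSeq 0.6.1 and compared with DESeq2. The deposited base mean is a signal, the mean of counts divided by size factors over 2 libraries of a group and 2 of control. The PSI is a fraction that the authors estimated with MISO and deposited for exons with a Bayes factor over 10. The other columns of these tables hold the authors' fold changes, p-values and Bayes factors, and were not used, nor was a second copy of the BRG1-wt table. The 1 library of each splicing table was taken from the name of the table.

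Members and gene lists were chosen with earlier results of these data known. Genes were placed by the GENCODE 44 annotation on GRCh37. Exonic GC content and length are those of all annotated exons merged. Base mean ratios were centred on the median of protein-coding genes at 50 or more in both tables, with a fold of 1.2 as the limit, and no test was made, since base means have no replicate values. The splicing tables hold no gene identifiers, so exons were assigned by overlap with the gene span on the same strand, in place of the planned identifier. A KRAB A box was first searched by 6 residues with at most 1 mismatch, which found 130 members and missed known KRAB genes, and then by 20 residues, which found 153. Named were, by rule, the 5 highest and 5 lowest members per kb and in each pair of tables, those next to the limit, and the 6 largest differences in PSI. The ratio step was tested on simulated data with changes planted only in genes well above the base mean limit. It was therefore not tested for members of low level. Alternatives were other limits, folds, centrings, a GC correction and single replicates. Python 3.11.15, pandas 2.3.3 and numpy 2.4.6 were used.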

Additional observations from a re-analysis of the deposited data

Results flagged for a closer look

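The 2 exons that differed in opposite directions between groups were marked because every library that listed them went one way in one group and the other way in another, and this difference was not tested. The exon of ZNF419 differed from control by 0.42 in BRG1-wt replicate 1 and by -0.28 in BRM-mut replicate 2. The exon of ZNF507 differed by 0.28 in BRG1-mut replicate 2 and by -0.28 in BRM-mut replicate 1. Each group has only 1 listing library for these exons, the control libraries are those of different replicates, and 17.1% of the exon stretches of ZNF419 occur more than once on chromosome 19.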

How the results depend on the processing

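For the median ratio, the alternatives were no centring, total scaling, GC correction, other limits, a pseudocount of 10, the mean, and other choices of members. Under each, the median of the members moved by less than 0.1 on the log2 scale in all 3 pairs. That limit was set since no replicate spread exists, and it is larger than each median given above (-0.03, 0.06 and 0.03). It therefore cannot show that their size or sign was stable. With the GC correction the median went from -0.027 to -0.0019 for BRG1-mut over BRG1-wt and from 0.063 to 0.028 for BRM-mut over BRM-wt. Without centring the median of BRM-mut over BRM-wt was 0.145. No centring turned the median of BRM-wt over BRG1-wt from 0.03 to -0.02. Counts past the fold depended on the setting. For BRG1-mut over BRG1-wt, 10 higher members became 4 at a fold of 1.5, 16 at 1.1 and 2 with the GC correction, beside 2.72%, 22.2% and 2.35% of all genes, and 1 lower became 7 at 1.1 and 4 with the GC correction, beside 7.80% and 4.33%. For BRM-mut over BRM-wt, 3 higher became 0 at 1.5, 23 at 1.1, 12 with no centring and 5 with the GC correction, beside 0%, 3.69%, 1.27% and 1.06% of all genes. Under the same settings 7 lower became 2, 12, 5 and 3, beside 2.93%, 24.0%, 9.28% and 4.96%. The 5 higher members under the GC correction left out ZNF540 and took in ZNF497, ZNF784 and ZNF524. For BRM-wt over BRG1-wt, 0 higher became 5 at 1.1, beside 2.53%, and 0 lower became 4 at 1.1, 2 with no centring and 1 with the GC correction, beside 5.09%, 1.34% and 0.574%. ZNF787 turned from -0.48 to 0.0133 in BRM-mut over BRM-wt with the GC correction. With both replicates required, 0 of the 20 members kept an exon, while over all genes 543 of 4648 combinations of group and exon (11.7%) were kept. With 1 replicate left out, 11 to 12 members had one, with 6 to 7 listings higher and 5 to 7 lower. The share of all genes with 1 replicate left out was not taken, so these counts are not compared with other genes. The A-box consensus of 20 residues found 0 exons in place of 5, since it runs past the exon end. GC limits of 45% and 55%, chosen after seeing the data, gave 59 and 17 members in place of 26, of which 10 and 9 were higher in the first pair. The share of other genes was not taken at these limits, so these counts have no background. The assignment by gene identifier could not be run. No paired analysis was possible because the results come from no test. The reads behind single values are unknown and base means have no error, so that small ratios cannot be read.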
